A study of Mus musculus with 6 samples.

Results

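The genes described here encode the sheet-forming and cross-linking parts of the basement membrane: the laminin chains Lama4, Lama5, Lamb1, Lamb2 and Lamc1, the nidogens Nid1 and Nid2, the proteoglycans perlecan (Hspg2) and agrin (Agrn), and the enzyme peroxidasin (Pxdn). They were taken by symbol, and all 10 were found among the 54532 genes of the deposited count table. The set was chosen by the log2 fold changes of an earlier look at these same libraries, so its own values in that comparison are given as a description. RNA was sequenced from mouse bone marrow-derived macrophages, which are grown in culture from marrow precursors. XKO macrophages carried the label Xbp1ΔMf, a loss of Xbp1 in macrophages, and XWT macrophages the label Xbp1FL/FL, with both Xbp1 alleles flanked by recombination sites. The XBP1 protein is a transcription factor activated by unfolded protein in the endoplasmic reticulum. All animals had the C57BL/6 background and an age of 32 to 34 weeks. Every culture, XKO and XWT alike, was primed with lipopolysaccharide and then held for 48 h in medium conditioned by hepatocytes of wild-type mice. Each group had 3 libraries, and the sources used here do not name what drives the deletion. Whether libraries of 1 group stem from different animals or dishes is not stated in the labels, so the errors below may be technical.

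A basement membrane is a thin mat that lies under epithelia and endothelia and around muscle, fat and Schwann cells. Laminins are trimers of an alpha, a beta and a gamma chain that polymerise at the cell surface, and collagen IV forms a network of its own. Nidogens and perlecan join the laminin and collagen networks, agrin ties laminin to receptors such as dystroglycan, and peroxidasin makes the sulfilimine bonds that lock collagen IV. Fibroblasts, mural cells, endothelium and epithelium are known as the main makers of these proteins.

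In XKO macrophages 7 of the 10 genes were lower than in XWT macrophages and 1 was higher, by edgeR's quasi-likelihood test at an adjusted p below 0.05. Lama4, Lama5, Lamb1, Lamb2, Nid1, Hspg2 and Pxdn fell, Agrn rose, and Lamc1 and Nid2 did not pass the threshold. All 10 passed the filter on low counts. Across the 14333 genes tested, 7.99% were lower and 6.00% higher at that threshold, so 42.9% of the calls were higher, against 60.7% when libraries were scaled by their totals alone. Levels here are CPM, each library's counts per gene divided by its total after TMM scaling, unless FPKM is named. The falls ranged from 2.75-fold for Lamb2 to 15.5-fold for Pxdn, and 6 of the 7 had a log2 fold change below -2, a size reached downward by 1.74% of the tested genes. The median log2 fold change of the 10 genes was -2.87, against 0.001 for all tested genes. Because the genes were picked with this contrast known, nothing is drawn from these counts. In bulk RNA, fewer cells of a type and less RNA per cell cannot be told apart.

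**Figure D1:**
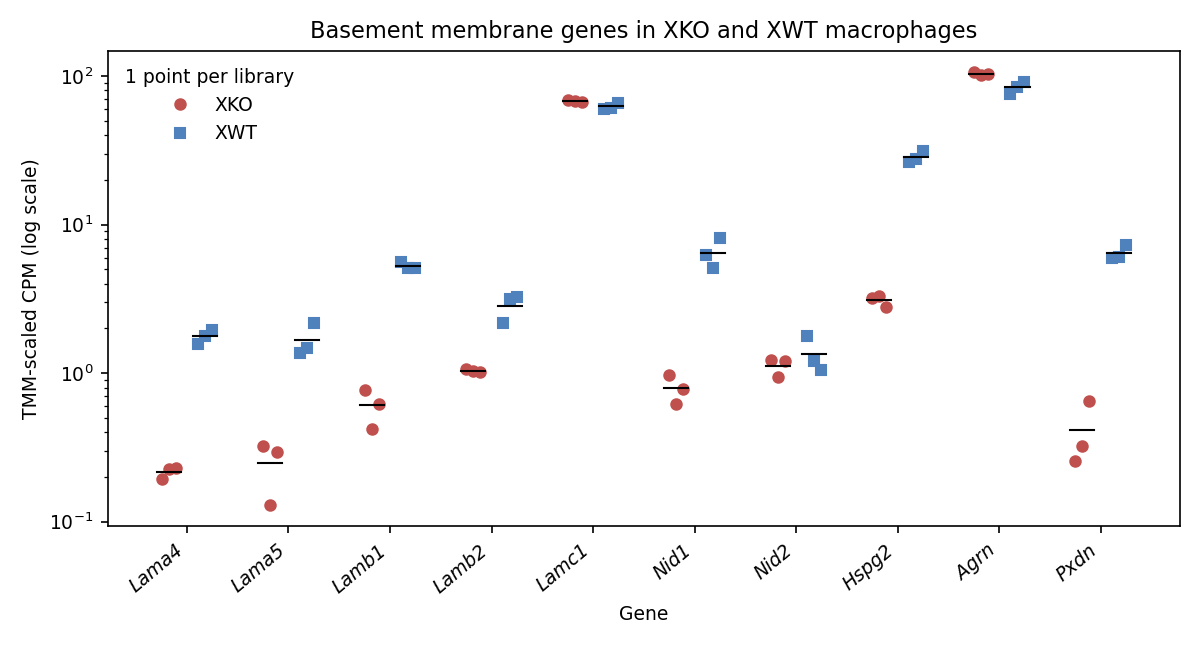
Level of each of the 10 genes in every library, as TMM-scaled CPM on a logarithmic axis. XKO libraries are circles and XWT libraries squares, and black bars are the means of 3 libraries. For 7 genes every XKO library lies below every XWT library, as for 18.6% of all tested genes. Agrn and Lamc1 stand between 60.0 and 106 in all 6 libraries.

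Promoter sequences show how differently built the start regions of these genes are. RefSeq windows on GRCm38.p6, from 250 bases before to 50 after a RefSeq start, were at hand for 7 of the 10 genes. That start need not be the deposited gene start. The Pxdn window begins at 29937786, past the deposited start at 29937608, and so lies inside the gene as deposited. The 5 printed here are the proteoglycan pair that moved in opposite directions, the beta chain pair with unequal falls, and Pxdn, which had the largest fall. Each reads 5′ to 3′ on the strand of its gene, and capitals mark a GC box (GGGCGG on either strand) or the ACGTG core found in sites of XBP1 and other factors (either strand). They lie at chr4:137468553-137468852 (plus strand) for Hspg2, chr4:156197439-156197738 (minus) for Agrn, chr12:31265043-31265342 (plus) for Lamb1, chr9:108479612-108479911 (plus) for Lamb2 and chr12:29937786-29938085 (plus) for Pxdn.
Hspg2: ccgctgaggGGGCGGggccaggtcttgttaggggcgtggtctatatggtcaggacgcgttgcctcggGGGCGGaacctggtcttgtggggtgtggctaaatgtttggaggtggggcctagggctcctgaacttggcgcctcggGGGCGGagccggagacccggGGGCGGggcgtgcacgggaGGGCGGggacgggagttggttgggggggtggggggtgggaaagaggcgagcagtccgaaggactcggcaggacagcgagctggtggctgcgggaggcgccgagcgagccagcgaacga
Agrn: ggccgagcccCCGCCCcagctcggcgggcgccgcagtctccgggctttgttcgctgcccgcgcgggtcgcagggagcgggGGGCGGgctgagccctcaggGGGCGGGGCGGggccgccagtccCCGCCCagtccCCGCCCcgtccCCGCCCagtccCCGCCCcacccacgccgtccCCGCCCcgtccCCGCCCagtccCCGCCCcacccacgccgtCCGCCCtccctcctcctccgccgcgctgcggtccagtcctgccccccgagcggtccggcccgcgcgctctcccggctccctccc
Lamb1: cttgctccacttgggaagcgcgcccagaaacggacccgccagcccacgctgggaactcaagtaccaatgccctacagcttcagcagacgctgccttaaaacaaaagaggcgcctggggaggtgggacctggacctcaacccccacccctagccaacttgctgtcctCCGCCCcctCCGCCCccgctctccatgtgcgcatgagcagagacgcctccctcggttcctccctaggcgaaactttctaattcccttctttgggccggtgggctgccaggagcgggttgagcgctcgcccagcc
Lamb2: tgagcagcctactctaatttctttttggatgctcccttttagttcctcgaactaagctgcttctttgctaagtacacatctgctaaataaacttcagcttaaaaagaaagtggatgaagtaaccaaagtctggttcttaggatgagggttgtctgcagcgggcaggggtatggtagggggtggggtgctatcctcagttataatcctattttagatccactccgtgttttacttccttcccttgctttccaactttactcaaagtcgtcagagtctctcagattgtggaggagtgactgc
Pxdn: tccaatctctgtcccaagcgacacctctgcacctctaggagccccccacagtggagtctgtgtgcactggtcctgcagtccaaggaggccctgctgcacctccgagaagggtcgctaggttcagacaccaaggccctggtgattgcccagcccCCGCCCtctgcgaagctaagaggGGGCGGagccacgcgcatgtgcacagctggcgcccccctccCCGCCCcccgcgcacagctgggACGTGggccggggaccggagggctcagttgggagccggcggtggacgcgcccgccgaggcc

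The Agrn window held 12 GC boxes at a GC content of 83.3%, and the Hspg2 window held 5 at 70.3%. Both proteoglycan windows thus held several GC boxes, spaced apart in Hspg2. The transcripts of this pair moved in opposite directions, and any part of the motifs in that was not tested. Lamb1 had 2 GC boxes at 63.7% GC, whereas Lamb2 had 0 at 44.0% GC. Pxdn had 3 GC boxes at 70.0% GC. Agrn had a further window at another annotated start, with 2 GC boxes at 61.3% GC, and the counts that follow take the window listed first for each gene. With Lama5 and Nid1 included, 6 of the 7 windows held a GC box, against 35.7% of the 32851 windows of that length. The median GC content of those 32851 windows was 52.7%, and the comparison was not matched for GC content. The ACGTG core stood in 1 of the 7 windows, that of Pxdn, against 19.6% of all windows. No window held the ER stress element, CCAAT and CCACG with 9 bases between (0.119% of all windows), the TATA box TATAAA (13.6%) or a CArG box (1.63%), each searched on both strands. GC boxes can overlap each other, and no other pair of these motifs overlapped in the printed windows. A match is a run of letters and not a measured binding site.

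Of the alpha chains, which carry the binding domains for cell receptors, Lama4 and Lama5 were both lower in XKO. Lama4 (ENSMUSG00000019846, chromosome 10 from 38965515 to 39110188, plus strand), the chain of vascular and mesenchymal laminins, had 6, 7 and 7 counts in XKO 1 to 3, against 42, 53 and 61 counts in XWT 1 to 3. Every XKO library was below every XWT library, as for 18.6% of all tested genes. Its level was 0.217 ± 0.020 CPM in XKO and 1.77 ± 0.20 CPM in XWT (SD, n = 3 each), a log2 fold change of -3.01 (SE 0.334). Lama5 (ENSMUSG00000015647, chromosome 2 from 180176373 to 180225859, minus strand), the alpha chain of most adult basement membranes, had 10, 4 and 9 counts in XKO and 37, 44 and 68 counts in XWT. The groups did not overlap here either, but the counts are few. The 3 XKO libraries sum to 23 counts, for which counting error alone gives an exact Poisson 95% interval of 14.6 to 34.5, and 20 counts for Lama4 give 12.2 to 30.9. The log2 fold change of Lama5 was -2.74 (SE 0.385).

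The beta chains fell by unequal amounts. Lamb1 (ENSMUSG00000002900, chromosome 12 from 31265234 to 31329644, plus strand), the beta chain of laminins widespread in development, had 24, 13 and 19 counts in XKO, against 151, 152 and 160 counts in XWT. Its level was 0.606 ± 0.176 CPM in XKO and 5.28 ± 0.28 CPM in XWT (SD, n = 3 each), and its log2 fold change was -3.11 (SE 0.226). The XWT libraries lay close together and far above the XKO libraries. Lamb2 (ENSMUSG00000052911, chromosome 9 from 108479736 to 108490530, plus strand), the beta chain of neuromuscular and glomerular laminins, had 33, 32 and 31 counts in XKO and 59, 93 and 101 counts in XWT. Here the XKO libraries were tight and the XWT libraries spread, with XWT 1 nearest to XKO. The log2 fold change of Lamb2 was -1.46 (SE 0.235), a 2.75-fold lower level, against an 8.66-fold lower level of Lamb1. In the authors' FPKM, which are per kilobase, the ratio of Lamb1 to Lamb2 was 0.446, 0.249 and 0.376 in XKO and 1.57, 1.00 and 0.972 in XWT. Lamb1 was thus the lesser beta chain in every XKO library and close to or above Lamb2 in every XWT library.

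Lamc1 (ENSMUSG00000026478, chromosome 1 from 153218922 to 153332786, minus strand), the gamma chain shared by most laminin trimers, was far more abundant than any other laminin gene and did not pass the threshold. It had 2144, 2078 and 2041 counts in XKO, against 1617, 1817 and 2062 counts in XWT. After scaling, its level was 67.8 ± 1.23 CPM in XKO and 62.4 ± 3.18 CPM in XWT (SD, n = 3 each). The XKO libraries were slightly above the XWT libraries, and the log2 fold change was 0.12 (SE 0.066). Every XKO library lay above every XWT library for 17.5% of all tested genes.

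Because each trimer takes up a chain of every kind, their levels per kilobase were also set side by side. The alpha chains Lama1 to Lama5 summed to 0.256, 0.262 and 0.228 FPKM in XKO and 0.442, 0.591 and 0.604 FPKM in XWT. The beta chains Lamb1 to Lamb3 summed to 0.276, 0.271 and 0.252 FPKM in XKO and 0.936, 1.05 and 1.08 FPKM in XWT. Both sums were lower in all XKO libraries, while Lamc1 alone stood at 8.15 ± 0.15 FPKM in XKO and 7.53 ± 0.34 FPKM in XWT (SD, n = 3 each). The level of Lamc1 was 32.9 ± 2.08 times the alpha sum in XKO and 14.0 ± 2.09 times in XWT. It was 30.6 ± 0.996 times the beta sum in XKO and 7.39 ± 0.34 times in XWT. Lamc1 thus exceeded the alpha and the beta sums per kilobase in both groups, and by more in XKO.

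**Figure D2:**
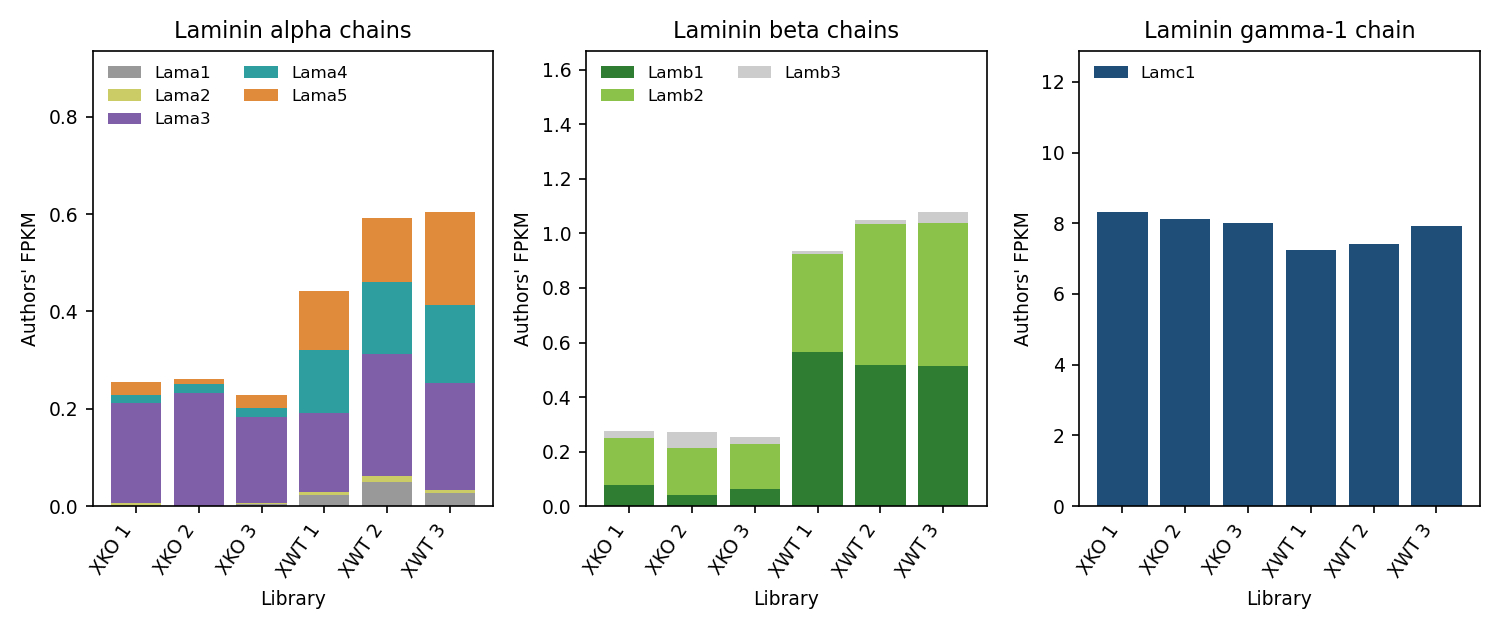
Authors' FPKM of the laminin alpha chains, beta chains and Lamc1 in each library, stacked by gene, with XKO libraries to the left and XWT libraries to the right and a separate vertical scale per panel. The alpha and beta columns are shorter in all XKO libraries, and the Lamc1 column stays between 7.26 and 8.31 FPKM.

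Alpha chains outside the set were also measured. Lama3, the alpha chain of epithelial laminins, had 2.22 ± 0.29 CPM in XKO and 2.28 ± 0.49 CPM in XWT (SD, n = 3 each) with overlapping groups. Its log2 fold change of -0.044 (SE 0.222, adjusted p = 0.914) turned to 0.023 with library size alone, 0.047 without XKO 3 and 0.090 without XWT 2. Lama3 made up 82.4% ± 5.43 of the alpha FPKM in XKO and 38.7% ± 3.34 in XWT (SD, n = 3 each), with Lama4 and Lama5 lower. Lama1, Lama2, Lamb3 and Lamc3 had too few counts to be tested. Lama1, singled out after its values were seen, had 0, 0 and 1 counts in XKO and 6, 14 and 8 counts in XWT, a ratio of 0.034 with an exact binomial 95% counting interval of 0.000831 to 0.205.

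The nidogens, which link laminin to collagen IV, behaved differently from each other. Nid1 (ENSMUSG00000005397, chromosome 13 from 13437551 to 13512269, plus strand) had 30, 19 and 24 counts in XKO, against 168, 152 and 252 counts in XWT. It stood at 0.789 ± 0.174 CPM in XKO and 6.47 ± 1.49 CPM in XWT (SD, n = 3 each), and its log2 fold change was -3.03 (SE 0.234). The groups were far apart, and XWT 3 was the highest. Nid2 (ENSMUSG00000021806, chromosome 14 from 19751265 to 19811787, plus strand) had 38, 29 and 37 counts in XKO and 48, 36 and 33 counts in XWT. The groups overlapped, and the log2 fold change was -0.25 (SE 0.288). Of the summed nidogen FPKM, Nid1 took 34.1% ± 2.51 in XKO and 77.7% ± 6.58 in XWT (SD, n = 3 each).

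The Nid2 value has a limit of annotation. In GENCODE M21, 437 of its 5174 exonic bases also belong to exons of Rtraf, a gene on the opposite strand with 14162 counts over the 6 libraries, and whether the counting used strand is not known from the sources used here. Rtraf had 72.0 ± 1.63 CPM in XKO and 86.2 ± 15.5 CPM in XWT (SD, n = 3 each), with a log2 fold change of -0.26 (SE 0.104, adjusted p = 0.115). How many of the Nid2 reads lie in the shared stretch was not tested. Nid1 shares 143 exonic bases with the antisense gene Gm48682, which had 0 counts, and the exons of the other 8 genes overlap none of another gene.

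The heparan sulfate proteoglycans moved in opposite directions. Hspg2 (ENSMUSG00000028763, chromosome 4 from 137468769 to 137570630, plus strand) encodes perlecan, which binds growth factors through its sugar chains and bridges laminin and collagen IV. It had 99, 101 and 86 counts in XKO, against 713, 819 and 971 counts in XWT. The XKO libraries were close to each other at 3.09 ± 0.25 CPM, and XWT stood at 28.4 ± 2.41 CPM (SD, n = 3 each). The log2 fold change was -3.20 (SE 0.114), a 9.16-fold lower level and the most precise of the 7 falls. Agrn (ENSMUSG00000041936, chromosome 4 from 156165290 to 156197488, minus strand) encodes agrin, which clusters acetylcholine receptors at the neuromuscular junction and is made by many other cells. It had 3286, 3104 and 3173 counts in XKO and 2053, 2491 and 2856 counts in XWT. All XKO libraries were above all XWT libraries, though XWT 3 came near, and the level was 103 ± 2.47 CPM in XKO and 83.8 ± 7.62 CPM in XWT (SD, n = 3 each). The log2 fold change of Agrn was 0.30 (SE 0.073), and it did not pass the threshold without XKO 1 (0.29), without XKO 2 (0.32) and without XKO 3 (0.30). In FPKM, Agrn was 51.8 ± 4.78 times Hspg2 in XKO and 4.55 ± 0.126 times in XWT.

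Pxdn (ENSMUSG00000020674, chromosome 12 from 29937608 to 30017658, plus strand), the gene of the collagen IV cross-linking peroxidase, had the largest fall of the 10. It had 8, 10 and 20 counts in XKO, against 161, 179 and 227 counts in XWT. XKO 3 was highest among the XKO libraries and still far below every XWT library. The level was 0.412 ± 0.211 CPM in XKO and 6.42 ± 0.73 CPM in XWT (SD, n = 3 each), with a log2 fold change of -3.95 (SE 0.265). The 38 counts over the XKO libraries have an exact Poisson 95% interval of 26.9 to 52.2, against 567 counts over the XWT libraries.

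Ranked by FPKM, Agrn and Lamc1 led in both groups, with 11.1 ± 0.27 and 8.15 ± 0.15 FPKM in XKO and 9.01 ± 0.78 and 7.53 ± 0.34 FPKM in XWT (SD, n = 3 each). In XWT, Hspg2 came next at 1.98 ± 0.16 FPKM, followed by Nid1, Pxdn, Lamb1, Lamb2, Nid2, Lama5 and Lama4. In that order the ranges of Nid1 and Pxdn, of Lamb1 and Lamb2, and of Lama5 and Lama4 overlapped. In XKO, Nid2 came next at 0.216 ± 0.030 FPKM with Hspg2 at 0.215 ± 0.018 FPKM, and Lamb2 followed at 0.170 ± 0.004 FPKM. Below them stood Nid1, Lamb1, Pxdn, Lama5 and Lama4, where Lamb1 overlapped Pxdn and Pxdn overlapped Lama5, whose range held that of Lama4. The 7 genes that fell summed to 6.77, 6.05 and 6.40 CPM in XKO and 49.4, 50.3 and 58.9 CPM in XWT, whereas all 10 summed to 183, 176 and 178 CPM in XKO and 187, 197 and 217 CPM in XWT.

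Within the XWT group the set did not vary evenly. XWT 3 was the highest XWT library for 8 of the 10 genes, against 34.0% of all tested genes. XWT 1 was the lowest for 7 of the 10, against 30.4% of all tested genes. Among the 8 tested stromal markers, XWT 3 was the highest for 7 and XWT 1 the lowest for 5. XWT 3 also stood nearest to XKO on the first principal component of all genes, at 18.2 against 36.9 and 38.6 for XWT 1 and XWT 2, with XKO between -33.8 and -29.2. Without XWT 3, all 7 lower genes and Agrn kept their calls.

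Among markers of other cells, those of the stroma fell with the set. The endothelial and Schwann cell sums changed little, with log2 ratios of the mean sums of -0.083 and -0.126, XKO over XWT. Of 13 stromal markers, 12 had counts, 8 were tested, 6 were lower and 0 higher, where 7.99% and 6.00% of all tested genes were. The other 2 tested markers did not pass, and 5 had too few counts to be tested, with Tcf21 at 0 counts in every library. The 13 markers summed to 53.1 to 62.9 CPM in XKO and 512 to 625 CPM in XWT, a log2 ratio of the mean sums of -3.28. The collagen genes Col1a1 and Col1a2, with means of 277 and 188 CPM in XWT, held most of that sum. It is thus mainly a level of collagen transcripts. Of 11 mural and smooth muscle markers, all with counts, 4 were tested, 2 were lower and 1 was higher, and they summed to 17.2 to 18.8 CPM in XKO and 61.3 to 69.7 CPM in XWT. They did not move together: the smooth muscle actin gene Acta2 fell to 6.56 ± 0.85 CPM in XKO, against 52.4 ± 4.19 CPM in XWT (SD, n = 3 each; edgeR adjusted p = 4.37e-10), whereas the proteoglycan gene Cspg4 rose to 9.15 ± 0.28 CPM in XKO, against 4.49 ± 0.36 CPM in XWT (SD, n = 3 each; edgeR adjusted p = 0.000106). The part of stromal and mural cells in the values of the 10 genes was not tested. The 12 endothelial markers, with Vwf and Eng highest, summed to 160 to 169 CPM in XKO and 164 to 188 CPM in XWT, 2 of 6 tested being lower. Of 7 epithelial markers Epcam, Krt8, Krt18, Krt5 and Cldn4 were at 0, and the sum, of Cdh1 and Krt19, was at most 0.130 CPM in XKO and 0.269 CPM in XWT. Of 9 hepatocyte markers Alb, Apoa1, Ttr, Fgb, Apoc3, Ahsg, Cyp2e1 and Serpina1c were at 0 in every library, although the medium came from hepatocytes, and Trf stood at 3.03 to 3.19 CPM in XKO and 4.28 to 7.50 CPM in XWT. The 6 Schwann cell markers, led by Mbp, summed to 115 to 118 CPM in XKO and 120 to 139 CPM in XWT with no call, and the 5 adipocyte markers to at most 0.0327 CPM in XKO and 0.0337 CPM in XWT, with Lep and Cidec at 0. All 10 macrophage markers, among them Adgre1 and Lyz2, were detected and summed to 26322 to 28074 CPM in XKO and 40646 to 48869 CPM in XWT, with a median log2 fold change of -0.17. The lysozyme gene Lyz2 held most of the difference in that sum, at 14274 ± 583 CPM in XKO and 31140 ± 3553 CPM in XWT (SD, n = 3 each). Lyz2 and Aif1 were lower and the other 8 did not pass.

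Set against the stromal markers, the set split in a different way. The summed markers were themselves lower in XKO, with a log2 ratio of the mean sums of -3.28. A gene that fell clearly less than this sum, or not at all, is therefore higher in XKO on this scale by construction. The split thus restates the fold changes above and was not a separate test. Per 1000 CPM of summed stromal markers, Hspg2 stood at 50.7, 61.9 and 47.5 in XKO and 51.7, 49.2 and 49.7 in XWT, so the groups overlapped. Nid1 stood at 15.4, 11.6 and 13.3 in XKO and 12.2, 9.14 and 12.9 in XWT. Lama4, Lama5 and Lamb1 overlapped between the groups as well. Pxdn, at 4.10, 6.13 and 11.1 in XKO and 11.7, 10.8 and 11.6 in XWT, overlapped through XKO 3 alone. Lamb2 did not overlap, at 16.9, 19.6 and 17.1 in XKO and 4.28, 5.59 and 5.17 in XWT. Lamc1, Nid2 and Agrn were also higher in every XKO library on this scale.

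**Figure D3:**
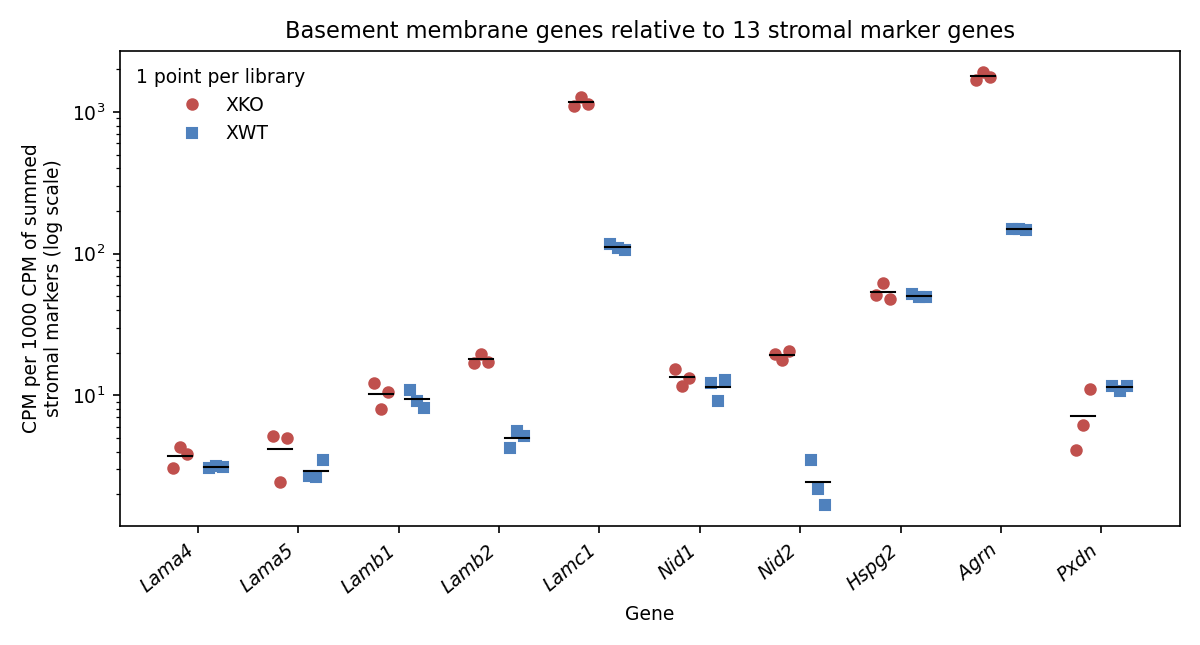
Level of the 10 genes per 1000 CPM of 13 summed stromal markers, on a logarithmic axis, with XKO libraries as circles, XWT libraries as squares and black bars as means of 3 libraries. XKO and XWT points overlap for Lama4, Lama5, Lamb1, Nid1, Hspg2 and Pxdn, for Pxdn through XKO 3 alone, while Lamb2, Lamc1, Nid2 and Agrn are higher in every XKO library. The summed markers were themselves lower in XKO (log2 ratio of the mean sums -3.28), so genes that fell less stand higher by construction.

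Other components of the basement membrane fell in part. Of 33 listed genes 17 had enough counts to be tested. In XKO 8 were lower and 2 higher (edgeR adjusted p under 0.05), where 7.99% and 6.00% of all tested genes were. The median log2 fold change of the list was -0.95, against 0.001 for all tested genes. Sparc, a collagen-binding glycoprotein, fell to 8.62 ± 1.28 CPM in XKO, against 94.8 ± 1.09 CPM in XWT (SD, n = 3 each; adjusted p = 7.6e-11). The laminin- and nidogen-binding fibulin gene Fbln2 had a log2 fold change of -3.71 (adjusted p = 1.32e-09) and the collagen cross-linking enzyme gene Loxl2 one of -3.21 (adjusted p = 1.75e-08). Among the collagen IV chains, Col4a1 and Col4a2, which assemble together into the common network, fell by 1.82 (SE 0.099, adjusted p = 3.05e-08) and 1.06 (SE 0.097, adjusted p = 6.26e-06) on the log2 scale. The chains Col4a5 and Col4a6, named after their values were seen, were the 2 that rose, by 0.43 (adjusted p = 0.00116) and 0.50 (adjusted p = 0.0425). Collagen IV genes thus changed both ways. Smoc2, a SPARC-related matrix gene, fell by 3.45 (adjusted p = 0.000507). Col18a1, whose product gives endostatin, had 433 ± 15.0 CPM in XKO and 372 ± 31.5 CPM in XWT (SD, n = 3 each) and did not pass (adjusted p = 0.0587), but did under 6 of 13 alternatives. Ecm1 differed by -0.054 on the log2 scale (adjusted p = 0.611) and by 0.016 with library size alone.

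**Figure D4:**
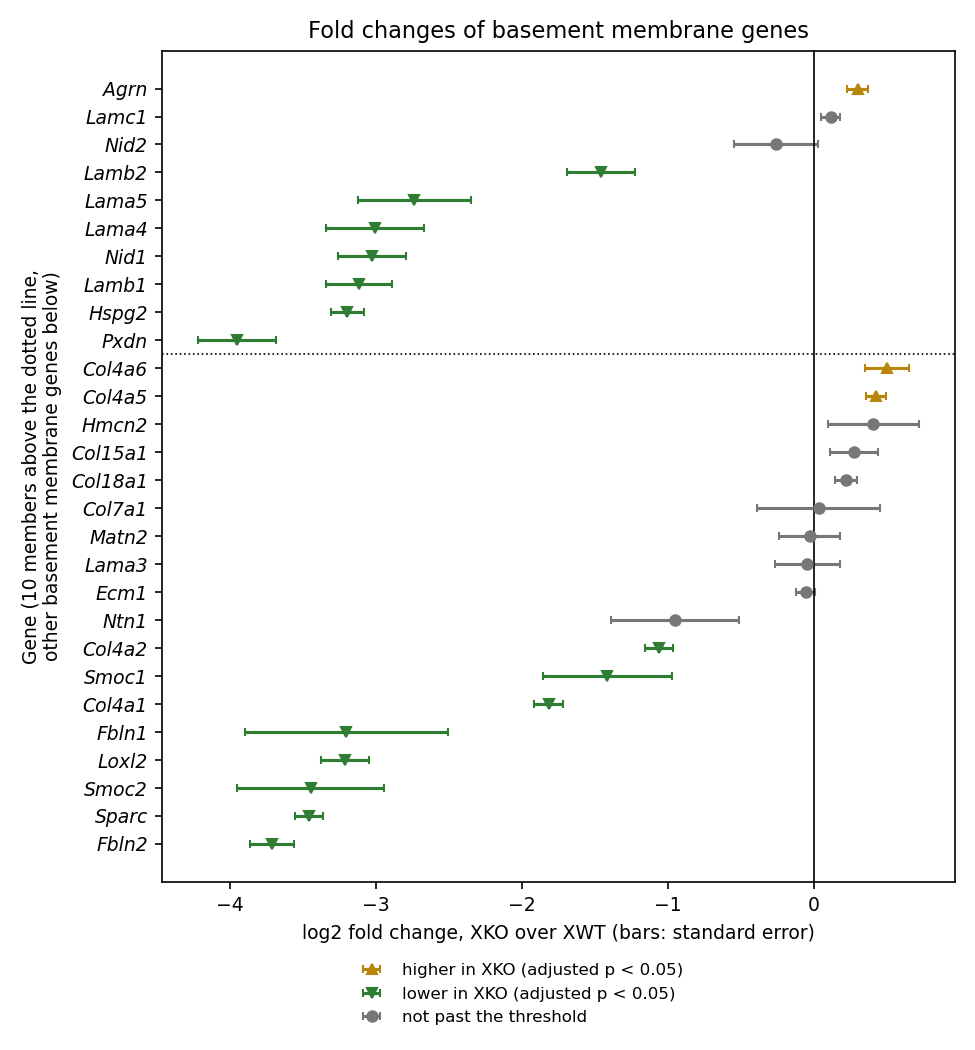
Log2 fold change of XKO over XWT with its standard error for the 10 genes (above the dotted line) and for Lama3 and the tested genes among other basement membrane components (below it). Downward triangles were lower in XKO, upward triangles higher and circles did not pass an adjusted p of 0.05. The falls reach -3.95 in Pxdn, and the largest rise shown is 0.50 in Col4a6.

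Of 23 genes on a list of receptors for laminin, perlecan, agrin or collagen and of proteins related to them, 16 were tested. Of these 16, 6 were lower and 2 higher, where 7.99% and 6.00% of all tested genes were. The median log2 fold change of the list was -0.16. The collagen receptors Ddr2 and Ddr1 fell, with log2 fold changes of -3.02 (SE 0.253, adjusted p = 2.57e-06) and -3.71 (SE 0.441, adjusted p = 7.79e-05), and so did the mesenchymal syndecan gene Sdc2 at -2.80 (SE 0.237, adjusted p = 2.85e-06). Sdc1 rose to 261 ± 10.2 CPM in XKO, against 196 ± 2.76 CPM in XWT (SD, n = 3 each; adjusted p = 0.000622). Sdc3 and the integrin gene Itga9 fell by 0.33 (adjusted p = 0.0161) and 0.58 (adjusted p = 0.00356). The laminin-binding integrin genes of highest level did not pass: Itgb1 had 572 ± 13.2 CPM in XKO and 582 ± 18.2 CPM in XWT (SD, n = 3 each; adjusted p = 0.826), and Itga6 had 273 ± 3.18 CPM in XKO and 265 ± 14.3 CPM in XWT (SD, n = 3 each; adjusted p = 0.710). Without XKO 1, and likewise without XKO 2 or without XKO 3, the 8 calls became 5, and that of Sdc3 was among those lost.

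Enzymes that build or trim heparan sulfate, the sugar of perlecan and agrin, changed in part. Of 22 listed 18 were tested, 4 were lower and 1 higher, where 7.99% and 6.00% of all tested genes were. The median log2 fold change of the list was -0.14. The sulfatase gene Sulf1 had the largest change, with 1, 0 and 9 counts in XKO and 32, 34 and 37 counts in XWT (adjusted p = 0.0029). Xylt2 and Xylt1, which start the sugar chain, differed by -0.34 (adjusted p = 0.00559) and 0.23 (adjusted p = 0.0378), the polymerase gene Ext2 by -0.24 (adjusted p = 0.0268) and the sulfatase gene Sulf2 by -0.23 (adjusted p = 0.0352). Extl3 (-0.12, adjusted p = 0.232) and Ndst1 (-0.018, adjusted p = 0.891, and 0.053 with library size alone) did not pass. With library size alone 2 were lower and 2 higher, and Ext2 and Sulf2 did not pass. The 5 calls became 3 with a replicate block, 2 without XKO 1, 1 without XKO 2, 2 without XKO 3, 3 without XWT 1 and 9 without XWT 3.

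Of 14 symbols for enzymes that build the laminin-binding sugar of dystroglycan, 11 were in the table and all were tested. Of these 11, 2 passed the threshold, where 14.0% of all tested genes did in either direction, so the list stood near that share. Among the 2 was the kinase gene Pomk, which fell by 0.36 (SE 0.085, edgeR adjusted p = 0.0140). The 2 calls became 1 without XKO 1 or XKO 3, 0 without XKO 2 and 4 without XWT 3.

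As a check of the genotype, Xbp1 had 77.6 ± 1.58 CPM in XKO and 149 ± 15.0 CPM in XWT (SD, n = 3 each), a log2 fold change of -0.94 (SE 0.077, edgeR adjusted p = 1.93e-06). The counts cover the whole gene, so any part outside a deletion would be counted too. How much of the gene was deleted, and in what share of the cells, was not tested. Library totals ran from 29965384 to 30184033 counts in XKO and from 28354866 to 30891729 counts in XWT.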

How the data were processed

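Messenger RNA was sequenced from 3 XKO and 3 XWT libraries, grouped by their titles. Per the submitters' processing notes, Bowtie 0.12.2 and the builds mm8 and mm10 were named, with no role. The sources used here do not name the counting program or its strand setting. The authors deposited whole read counts per gene without scaling, and FPKM, whose implied library totals are 0.950 to 1.03 times the count totals, so the authors scaled between libraries. The authors also deposited group means of scaled counts (a signal, not used), and a log2 fold change with its p-value and the p-value adjusted, by which 7 of the 10 genes were lower and 1 higher in the authors' deposited table. Gene coordinates and lengths are as deposited, and all 10 match GENCODE M21 (GRCm38).

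Counts were tested with edgeR 4.0.16 in R 4.3.3 (filterByExpr, 14333 of 54532 genes kept; TMM; robust quasi-likelihood fit with 4 residual degrees of freedom; Benjamini-Hochberg over all tested genes; threshold 0.05). Standard errors are the log2 fold change over the square root of F. CPM are TMM-scaled. The test was tried on simulated data. Members and gene lists were chosen with earlier results of these data known. Of each other gene list up to 6 called genes with the smallest p and 2 uncalled genes of highest level are named, and of marker lists the 2 highest and those at 0; some genes that this rule names are not reported here. Intervals cover counting error only. Alternatives were DESeq2 size factors, library size alone, no filter, a filter of 1 CPM in 3 libraries, DESeq2 1.42.0, limma-voom (limma 3.58.1), a replicate block and leaving out each library.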

Additional observations from a re-analysis of the deposited data

How the results depend on the processing

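Across 13 alternatives the 7 lower genes kept their direction and their side of the threshold, and so did Xbp1 and the uncalled Lamc1 and Nid2. Over single left-out libraries the log2 fold change of Pxdn ranged from -4.45 to -3.71 and that of Hspg2 from -3.25 to -3.13, the 8 calls of the set from 7 to 8, all tested genes from 806 to 4237 (2005 with all libraries), other basement membrane components from 7 to 10 (10), receptors from 5 to 9 (8), heparan sulfate genes from 1 to 9 (5) and dystroglycan sugar genes from 0 to 4 (2). Leaving out a library also lowers the residual degrees of freedom. The 806, 898 and 915 calls came without XKO 2, XKO 3 and XKO 1, the 1209 without XWT 2 and the 4237 without XWT 3. Other settings gave 1783 to 2834 calls, and library size alone made 60.7% of the calls higher, against 42.9%. Same-numbered libraries did not deviate together (correlations -0.043, -0.036 and -0.054, against 0.000 to 0.041 for differing numbers). Whether the numbers pair samples is not stated in the labels, and these values cannot settle it. The replicate block gave 8 calls in the set, 2195 over all genes and 3 in place of 5 heparan sulfate genes. Of 324 values of 25 named genes outside the set, 283 kept direction and side, 25 lost their call, 7 gained one and 9 changed sign, in 4 genes that had not passed. With library size alone these were Lama3 (0.023), Ecm1 (0.016), Itgb1 (0.045) and Ndst1 (0.053). Over single left-out libraries Lama3 ranged from -0.201 to 0.090 and Ndst1 from -0.091 to 0.029. The causes were not tested. For Lama4, Lama5 and Pxdn, with 20 to 38 counts over the XKO libraries, counting error limits the size of the fall.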
